A study of Mus musculus with 26 samples.

Results

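The Nkx homeobox genes described here are Nkx1-2, Nkx2-1, Nkx2-2, Nkx2-3, Nkx2-5, Nkx2-6, Nkx3-2, Nkx6-1 and Nkx6-2, which are 9 of the 38660 genes with a RefSeq start site on an assembled mouse chromosome. They were taken by name, and not by a measured value. For each gene, and in each table of regions, the region with the most overlap with 1.5 kb either side of a start site was used. Chromatin came from E14 mouse embryonic stem cells, an established line grown in serum and LIF, and from clones of this line that were WT (clones 57 and 58) or lacked both Dppa2 and Dppa4 (DKO, clones 43 and 53). Each group held 2 samples for each ChIP, and a clone is the progeny of 1 cell, so a difference between genotypes rests on 2 clones against 2. E14 replicates 1 and 2 were non-clonal, and were sequenced as batches A and B, whereas every clone was in batch C. In each sample total H3K4me3, total H3K27me3 and both reChIPs were profiled, with H3K4me3 then H3K27me3 written as K4-K27 and the reverse order as K27-K4. The totals are the 10% set aside after the first ChIP. One IgG–IgG reChIP was made from E14 replicate 1 and one from WT clone 57, and DKO clones had none of their own.

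Nkx genes encode homeodomain transcription factors that are switched on in particular tissues of the embryo. In embryonic stem cells such developmental promoters are typically silent, and carry the activating mark H3K4me3 together with the repressive Polycomb mark H3K27me3, a state termed bivalent. A reChIP recovers chromatin that was bound in both of its steps, so it reports the marks on the same fragment. DPPA2 and DPPA4 are small chromatin proteins of the early embryo and of embryonic stem cells, known for keeping H3K4me3 and bivalency at a set of developmental promoters.

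Promoter sequences of 8 of the 9 genes were found in the RefSeq promoter table (GRCm38.p6, the same assembly as mm10), and Nkx2-6 had no entry. A set of 4 is printed to show the range of CpG content at these promoters, since CpG-rich promoters are where bivalent chromatin is usually found. Each line covers bases 250 to 51 before the start site, read 5′ to 3′ on the gene's strand, and capitals mark CpG dinucleotides. All 4 genes lie on the minus strand, and none of the printed stretches overlaps an annotated exon. They are Nkx6-1 at chr5:101664762-101664961, Nkx3-2 at chr5:41764271-41764470, Nkx2-1 at chr12:56536959-56537158 and Nkx2-5 at chr17:26841616-26841815.
Nkx6-1: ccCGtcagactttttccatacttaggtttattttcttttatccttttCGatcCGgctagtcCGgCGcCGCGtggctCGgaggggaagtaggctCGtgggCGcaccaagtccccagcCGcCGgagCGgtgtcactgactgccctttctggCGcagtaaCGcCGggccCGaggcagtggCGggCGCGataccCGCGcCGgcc
Nkx3-2: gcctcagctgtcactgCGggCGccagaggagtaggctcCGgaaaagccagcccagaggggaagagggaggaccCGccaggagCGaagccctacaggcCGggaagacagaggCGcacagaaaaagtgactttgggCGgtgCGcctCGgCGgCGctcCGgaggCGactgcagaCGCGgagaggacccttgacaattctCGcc
Nkx2-1: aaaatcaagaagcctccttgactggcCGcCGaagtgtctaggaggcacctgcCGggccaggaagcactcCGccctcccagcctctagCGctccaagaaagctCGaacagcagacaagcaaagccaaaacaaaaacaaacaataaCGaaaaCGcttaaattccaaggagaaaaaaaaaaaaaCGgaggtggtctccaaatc
Nkx2-5: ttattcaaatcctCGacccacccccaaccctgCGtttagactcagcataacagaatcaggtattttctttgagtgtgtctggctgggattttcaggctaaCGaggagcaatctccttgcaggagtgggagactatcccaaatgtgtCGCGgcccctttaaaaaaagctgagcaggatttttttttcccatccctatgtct

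Over the whole 300 bases of an entry, from 250 before to 50 after the start, Nkx6-1 had 40 CpGs and Nkx6-2 had 32. Nkx3-2 had 25, Nkx1-2 had 21, Nkx2-2 had 17, Nkx2-3 had 15, Nkx2-1 had 12 and Nkx2-5 had 9. The median over 32851 promoters of the table was 7, so all 8 were above it, and Nkx6-1 stood at percentile 96.5 while Nkx2-5 stood at percentile 56.5. The motif TNAAGTG, the core sequence that NK2 proteins such as NKX2-5 bind, was searched on both strands. It was present in 2 of the 8 promoters (Nkx1-2 and Nkx2-2) and in 11.5% of all promoters of this length. The TATA box letters TATAAA, searched in the same way, were in none of the 8 and in 13.6% of all promoters. The letters of both motifs can overlap in a sequence, and a match is a description of the sequence only.

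All values are log2 RPM per kb of region as deposited, that is, reads scaled to library size and to region width. They step in whole reads, which gave between 6741244 and 47903462 reads per library. The label of the cells was checked on stem cell genes. Total H3K4me3 at the region of Pou5f1 in the E14 set was 1.33 and 1.83 in E14 replicates, 3.70 and 2.38 in WT clones and 3.54 and 3.03 in DKO clones, against IgG–IgG values of 0.099 (E14) and 0.64 (WT clone 57). All 9 stem cell genes listed (Pou5f1, Nanog, Klf4, Zfp42, Esrrb, Tdgf1, Fgf4, Dppa2 and Dppa4) had a total H3K4me3 region in the clone tables, and none was called different between genotypes. At the Dppa4 region of the WT table, total H3K4me3 was 2.34 and 1.45 in WT clones and 2.39 and 1.56 in DKO clones. A promoter mark outside the deleted sequence does not show whether a deletion is present, so this does not check the genotype labels.

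In E14 cells all 9 Nkx genes lay in regions listed with identical coordinates in the K4-K27 and the K27-K4 tables. These regions were wide. The narrowest was at Nkx2-6 (9.75 kb, chr14:69168751-69178500) and the widest at Nkx2-3 (29.1 kb, chr19:43593301-43622400), with a median of 18.15 kb over the 9 genes, compared with a median of 3300 bp over the 21857 regions that both tables list. By width the 9 regions stood between percentiles 93.2 and 99.7 of these. They covered the whole window around the start site in every case. The region at Nkx2-1 (25.8 kb, chr12:56517301-56543100) also held start sites of Gm26973 and Sfta3-ps, and that at Nkx2-2 (21.6 kb, chr2:147177601-147199200) held those of 6430503K07Rik and the antisense gene Nkx2-2os, so signal there cannot be given to 1 gene. The region at Nkx2-6 held a start site of 1700092C10Rik, that at Nkx2-3 held those of Gm20467 and Gm34922, and those at Nkx3-2, Nkx6-1 and Nkx6-2 each held 1 of a predicted gene. The regions of Nkx1-2 (chr7:132594601-132607950) and Nkx2-5 (chr17:26835151-26846850) held no other start site.

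**Figure D1:**
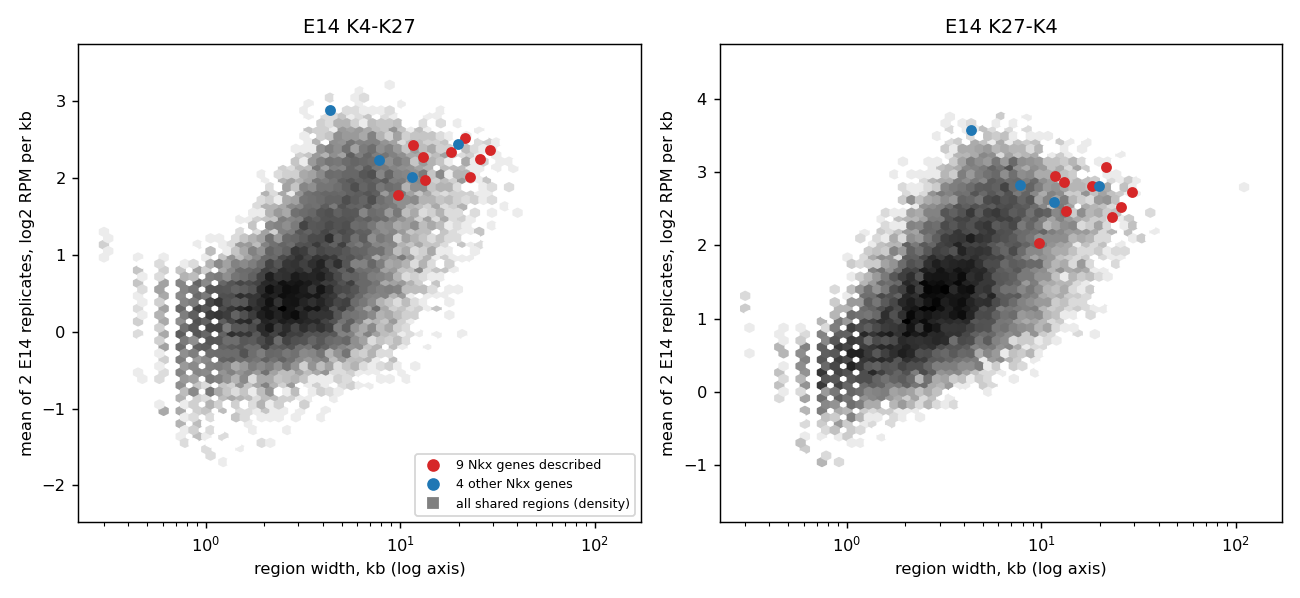
Region width (kb, log axis) against the mean of 2 E14 replicates (log2 RPM per kb) for K4-K27 (left) and K27-K4 (right). Grey shading gives the density of 21857 shared regions, red points the 9 Nkx genes and blue points 4 other Nkx genes; the red points lie at widths of 9.75 kb or more in the upper part of the levels.

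Total ChIP regions were found at fewer of these genes. The paper could not call many peaks from these in-line totals, which it ascribes as likely to low signal over noise. A missing total region therefore does not show that the mark is missing. Of the 9 genes, 5 had in E14 cells a total H3K4me3 region and 5 a total H3K27me3 region (Nkx1-2, Nkx2-1, Nkx2-2, Nkx2-5 and Nkx6-2 in both), and Nkx2-3, Nkx2-6, Nkx3-2 and Nkx6-1 had neither. In the WT clone tables, 4 of 9 had a total H3K4me3 region, 7 of 9 a total H3K27me3 region, 9 of 9 a K4-K27 region and 8 of 9 a K27-K4 region. In the DKO tables these counts were 4, 6, 8 and 7. Nkx2-6 had no region in any of the 4 DKO tables, and in the WT tables it was reached only by a K4-K27 region of 300 bp. Because regions were called per table, the level comparisons that follow use the shared E14 regions, which carry values for all 26 libraries at all 9 genes.

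The reChIP levels of the 9 genes were close together in E14 cells. For K4-K27, Nkx2-2, which patterns the ventral spinal cord and the endocrine pancreas, was highest at 2.51 ± 0.12 (SD, n = 2), with 2.43 in replicate 1 and 2.6 in replicate 2. Nkx2-6, a gene of the pharyngeal region and the outflow tract of the heart, was lowest at 1.78 ± 0.03, with 1.76 and 1.80. The order between them was Nkx2-5, Nkx2-3, Nkx6-1, Nkx6-2, Nkx2-1, Nkx3-2 and Nkx1-2, with means from 2.43 to 1.97. In 7 of the 8 neighbouring pairs of this order the replicates overlapped, and the exception was Nkx2-1 above Nkx3-2. The 9 means spanned 0.73 log2 units. Every value was above IgG–IgG, by 2.40 to 3.06. At Nkx1-2, a gene of the caudal neural plate, K4-K27 was 1.80 and 2.14, and at Nkx3-2 it was 1.98 and 2.04. Nkx6-2 had the widest gap between replicates, with 1.96 and 2.58, whereas Nkx2-6 and Nkx3-2 had the narrowest.

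For K27-K4 the order was similar at both ends, with Nkx2-2 highest (2.41 in replicate 1 and 3.73 in replicate 2, mean 3.07 ± 0.93) and Nkx2-6 lowest (1.29 and 2.79, mean 2.04 ± 1.06). Replicate 2 was above replicate 1 at every gene, so the samples of all 8 neighbouring pairs overlapped. Within each replicate, 6 of the 8 pairs kept this order in both, compared with 2 of 8 for K4-K27. Differences between neighbours were not tested. Nkx2-5, which drives heart formation, had 2.31 and 3.59. Nkx6-1, a factor of motor neuron progenitors and beta cells, had 2.19 and 3.44. Values were 2.29 to 4.11 above IgG–IgG.

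In E14 cells the 9 genes were high among the 21857 shared regions for both reChIPs and for H3K27me3 but not for H3K4me3. They stood between percentiles 87.1 (Nkx2-6) and 98.3 (Nkx2-2) for K4-K27, between 76.4 (Nkx2-6) and 97.5 (Nkx2-2) for K27-K4 and between 84.3 (Nkx6-2) and 98.9 (Nkx2-3) for total H3K27me3. For total H3K4me3 they stood between percentiles 22.2 (Nkx2-6) and 56.9 (Nkx6-2), with a median of 35.4. This is per kb of a wide region, so a narrow peak inside it is averaged with the flanks. In the clones K4-K27 stood lower among the same regions, between percentiles 33.4 (Nkx2-6) and 80.8 (Nkx6-2) in WT and between 3.76 (Nkx2-6) and 70.1 (Nkx2-2) in DKO clones. For K27-K4 and total H3K27me3 the median percentiles over the 9 genes were 94.2 and 97.1 in WT clones, compared with 93.0 and 91.8 in E14. Total H3K27me3 at Nkx2-6 stood at percentile 47.0 in WT and 26.6 in DKO clones. Total H3K4me3 itself was between -0.35 and 0.63 over the 9 genes and both E14 replicates, which was 0.38 to 1.07 above IgG–IgG. It was above the IgG–IgG of WT clone 57 in both samples at 7 of 9 genes in WT clones (not at Nkx2-1 and Nkx6-1) and at 6 of 9 in DKO clones (not at Nkx2-1, Nkx2-5 and Nkx2-6). Total H3K27me3 in E14 was 0.60 to 1.35 above IgG–IgG, and all 8 neighbouring pairs in its order overlapped.

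**Figure D2:**
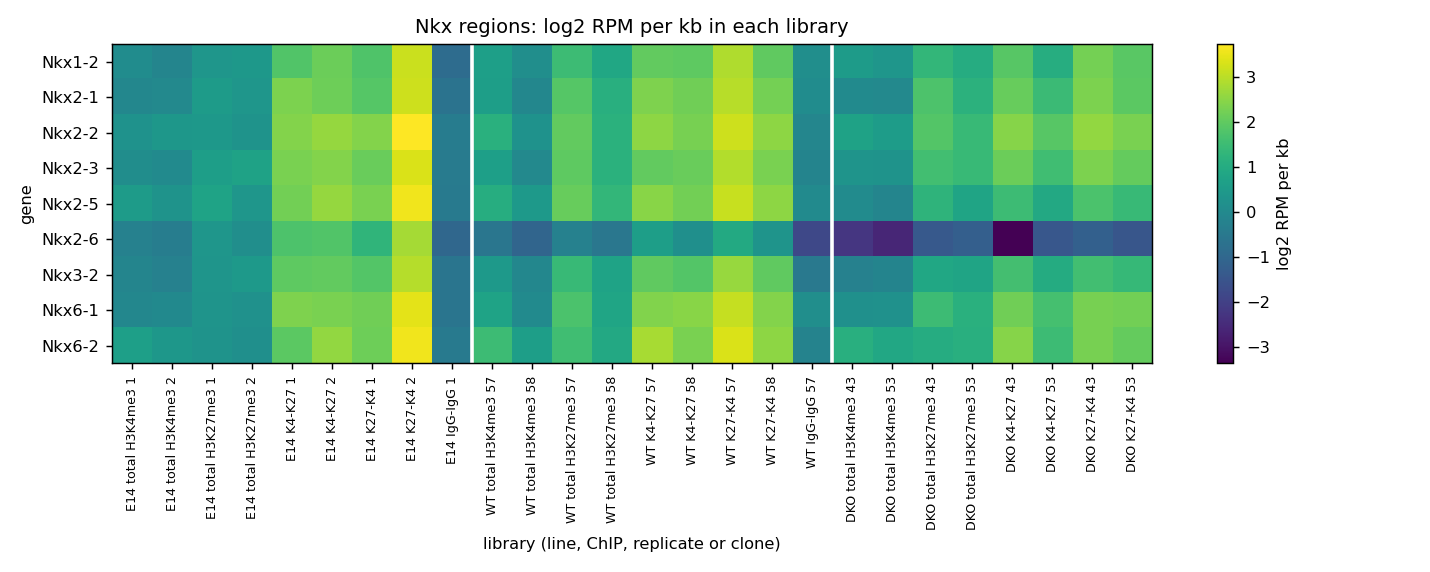
Heat map of log2 RPM per kb at the 9 Nkx genes (rows) in 26 libraries (columns), with white lines between E14, WT and DKO. The reChIP columns of E14 are high at all 9 genes (1.29 to 3.73), and Nkx2-6 is the lowest row in the WT and DKO reChIP columns.

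In the WT clones K4-K27 means of 8 of the genes lay between 1.92 (Nkx3-2) and 2.55 (Nkx6-2), and that of Nkx2-6 was 0.39. At Nkx2-3, a gene of spleen and gut mesenchyme, K4-K27 was 2.04 and 2.10 in clones 57 and 58, compared with 2.30 and 2.42 in E14 replicates. At Nkx6-1 it was 2.39 and 2.47, compared with 2.37 and 2.31. At Nkx2-6 it was 0.61 and 0.16, below both E14 values of 1.76 and 1.80, and K27-K4 was 0.96 and 0.30 against 1.29 and 2.79. In the WT order Nkx2-6 was last for each of the 4 ChIPs, and did not overlap its neighbour Nkx3-2, a gene of the axial skeleton, in any of them.

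The IgG–IgG level was low at the same gene. IgG–IgG at Nkx2-6 was -1.83 in WT clone 57 (41 reads) and -1.0 in E14 replicate 1 (43 reads), while at the 8 other genes it was between -0.50 and 0.15 in clone 57 and between -0.86 and -0.37 in E14. Over this background, K4-K27 at Nkx2-6 averaged 2.21 in WT clones, within the range of 1.86 (Nkx1-2) to 2.76 (Nkx6-2) of the other genes. The part of this in the lower level was not tested, nor was the number of copies of this locus in the clones, which bears on every Nkx2-6 value from them. E14 against WT cannot be told apart from the sequencing batches, so no test was made.

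Total H3K27me3 as deposited was higher in WT clones than in E14 at 8 of the genes. At Nkx2-5 it was 2.08 and 1.34 in WT clones and 0.75 and 0.36 in E14. At Nkx2-1, which specifies lung, thyroid and ventral forebrain, it was 1.87 and 1.13 against 0.54 and 0.37. At Nkx2-6 the order was the other way, with -0.25 and -0.55 against 0.35 and 0.16. Over IgG–IgG both of these directions turned at single genes, since Nkx1-2 averaged 1.04 in WT clones and 1.25 in E14, and Nkx2-6 averaged 1.43 and 1.25. Over all shared regions the library medians were -0.18 and -0.44 in WT clones and -0.49 and -0.58 in E14. The libraries as a whole were thus also higher in WT clones. The share of all regions that were higher was not computed, so this is not read as particular to these genes. WT clone 57 was above clone 58 in both totals at all 9 genes, with H3K4me3 of 1.15 and 0.25 at Nkx2-2 and of 1.51 and 0.61 at Nkx6-2. In DKO clones both H3K4me3 values lay between those of the WT clones at Nkx2-2 (0.71 and 0.55) and at Nkx6-2 (1.11 and 0.88). At Nkx2-5, Nkx2-6 and Nkx3-2 they lay below both WT clones.

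**Figure D3:**
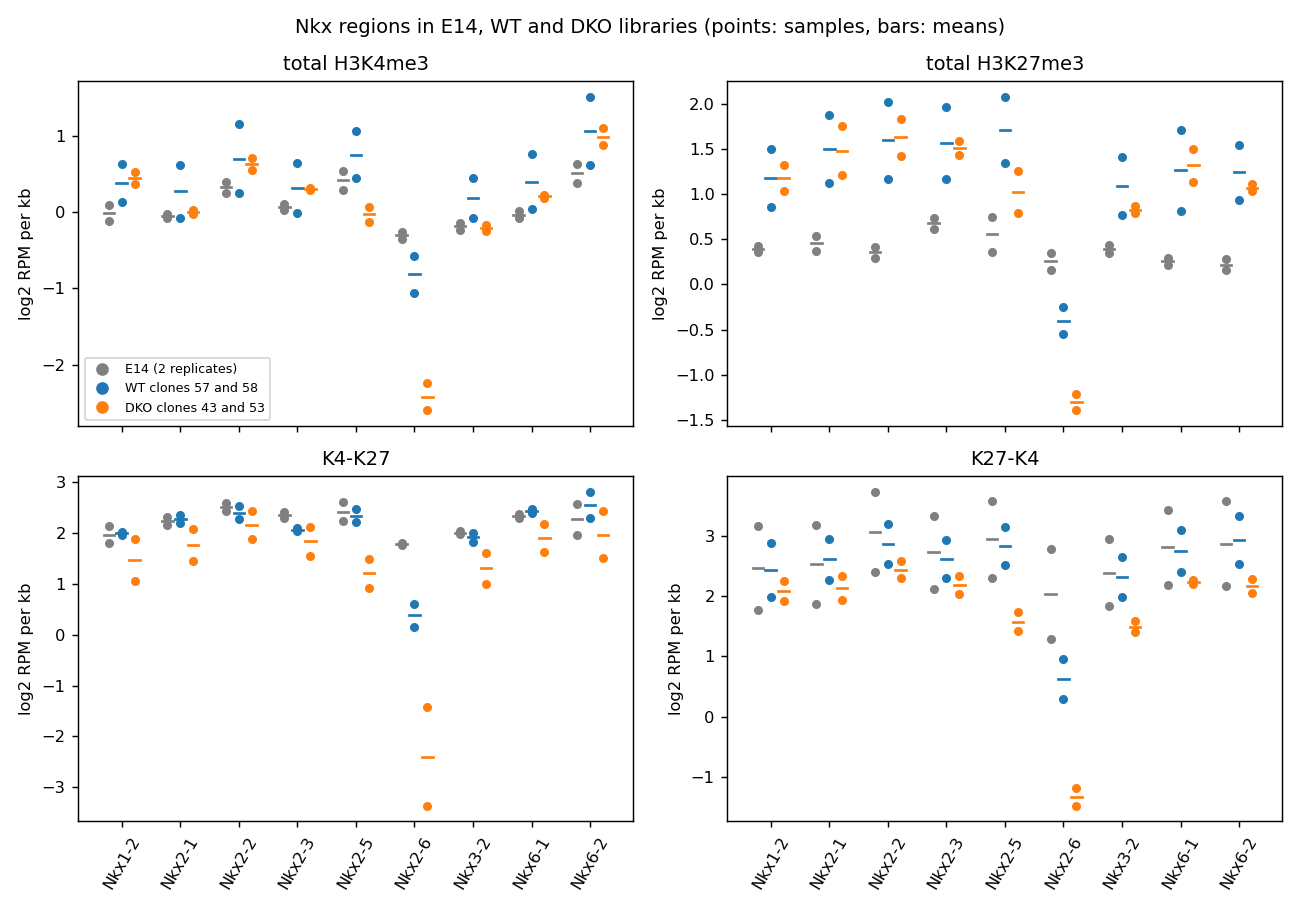
Log2 RPM per kb of each ChIP (panels) at the 9 Nkx genes (horizontal axis) in E14 (grey), WT (blue) and DKO (orange); points are samples and bars are means of 2. In the DKO the points of Nkx2-5 and Nkx2-6 lie below both WT points in all 4 panels.

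The comparison of DKO with WT clones asks whether bivalency at these genes changes when Dppa2 and Dppa4 are missing. Of the 9 genes, Nkx2-6 and Nkx2-5 had the lowest DKO levels relative to WT, and the other 7 differed by less than 1 log2 unit in every ChIP. In the fits over the regions of the WT and DKO tables no Nkx gene of the 9 was called for any ChIP, where called means a log2 difference above 1 either way and a Benjamini-Hochberg adjusted p under 0.05 in limma. Among all regions of these fits 1.19% were called for K4-K27, 2.26% for K27-K4, 2.72% for total H3K4me3 and 2.75% for total H3K27me3. At the regions of the WT table, an unadjusted p under 0.05 was reached by Nkx2-5 and Nkx2-6 of 9 genes for K4-K27 and by Nkx2-5 of 8 for K27-K4, and by none for either total. Over all regions 15.8%, 18.9%, 10.6% (total H3K4me3) and 15.4% (total H3K27me3) reached it, so these counts were near the background. The K4-K27 region of Nkx2-6 (300 bp with 10, 9, 1 and 3 reads) was listed in the WT table alone, so it entered through the group where it was high and its p supports nothing. The 95% intervals of single genes reached, in the median, 1.19 log2 units to either side for K4-K27 and 1.05 for K27-K4, which is the precision that 2 clones each gave. In bulk chromatin a mark lost in some cells and a mark lowered in all cells cannot be told apart.

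**Figure D4:**
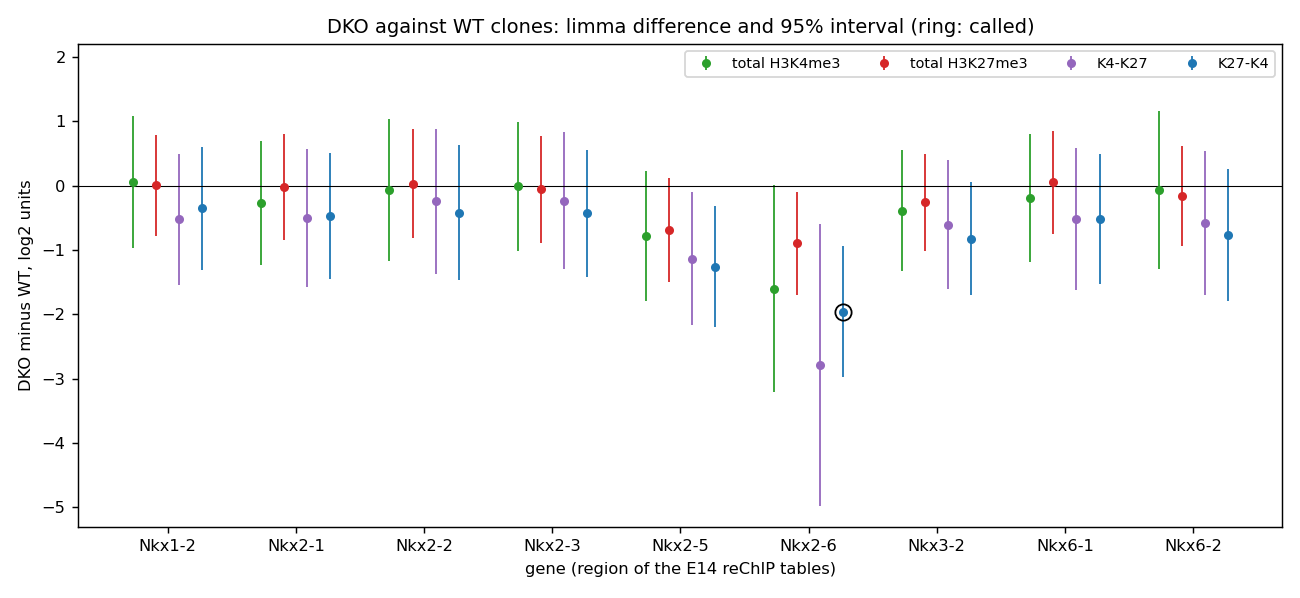
DKO minus WT (log2 units, limma, with 95% interval) of each ChIP at the shared E14 regions of the 9 Nkx genes. A ring marks the called difference, Nkx2-6 in K27-K4 (-1.96).

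Nkx2-6 had the lowest DKO levels of the 9 genes in every ChIP, and K27-K4 was the ChIP in which its difference was called. That call came from a fit that was added after the data were seen. With 1 of 9 genes called lower and 7.14% of all its regions called lower, the count was near the background. At its shared E14 region K4-K27 was 0.61 and 0.16 in WT clones (138 and 117 reads) and -3.36 and -1.43 in DKO clones (10 and 47 reads). The difference was -2.78 (95% interval -4.97 to -0.60), and with an adjusted p of 0.182 it was not called by limma, in a fit where 3.45% of regions were called lower. With 1 clone left out the K4-K27 difference ranged from -3.75 to -1.82. K27-K4 was 0.96 and 0.30 in WT clones (300 and 205 reads) and -1.19 and -1.48 in DKO clones (100 and 60 reads). This fall in reads of 1.96 log2 units (95% interval -2.98 to -0.94, limma adjusted p = 0.00384) was called, in a fit over the regions of the E14 K4-K27 table where 7.14% of regions were called lower. Without WT clone 57 it was -1.63 with an adjusted p of 0.162 and no longer called. Total H3K4me3 was -0.57 and -1.06 in WT clones and -2.24 and -2.6 in DKO clones, a difference of -1.60 (-3.21 to 0.0038). Total H3K27me3 was -0.25 and -0.55 against -1.39 and -1.21, a difference of -0.90 (-1.70 to -0.09). DKO was below both WT clones in all 4 ChIPs, but the totals were not called, with limma adjusted p-values of 0.444 for total H3K4me3 and 0.334 for total H3K27me3, where 4.15% and 2.05% of the E14 regions were called lower. In the DKO K4-K27 and total H3K4me3 libraries, Nkx2-6 lay between 1.54 log2 units below and 0.40 above the WT IgG–IgG value, and both DKO total H3K4me3 values were below it. DKO clones had no IgG–IgG of their own and copy number was not tested, so a lower mark and less DNA at this locus in the DKO cannot be told apart here.

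Nkx2-5 was the other gene whose DKO levels lay below both WT clones in every ChIP. K4-K27 at its shared region was 2.47 and 2.22 in WT clones and 1.5 and 0.92 in DKO clones. K27-K4 was 3.15 and 2.53 against 1.73 and 1.43. These differences were -1.13 (-2.16 to -0.11) and -1.26 (-2.20 to -0.32), with limma adjusted p-values of 0.321 and 0.0866, so neither was called. At its narrower WT table region for K4-K27 (chr17:26837851-26843100) the difference was -1.33 with an adjusted p of 0.240. Total H3K4me3 over that start site (chr17:26837851-26841900) was 2.06 and 1.22 in WT clones and 0.52 and 0.44 in DKO clones, a difference of -1.16 (-2.33 to 0.02, limma adjusted p = 0.489). Without WT clone 58 the K27-K4 difference was -1.59 and was called (adjusted p = 0.000339), as was that of total H3K4me3 (-1.58, 0.0143), both at the WT table regions, in fits that called 9.29% and 7.36% of all regions lower. The total H3K4me3 region was listed in the WT table alone, so it too entered through the group where it was high, and its calls support nothing. Without WT clone 57 they were -0.97 and -0.73, and no other clone left out gave a call at these regions. Total H3K27me3 at the shared region was -0.68 (adjusted p = 0.604), and -0.32 without WT clone 57. Without WT clone 58 it was -1.05 and called (adjusted p = 0.000914), where 3.16% of regions were called lower. When libraries were centred on their medians, total H3K4me3 (-1.19, adjusted p = 0.000883) and K4-K27 (-1.28, 0.0486) were called as well, with 5.07% and 1.52% of all regions called lower, the former at the region of the WT table alone.

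The remaining genes stayed nearer to the WT level. All 9 genes were below 0 for K4-K27 and for K27-K4 at the shared regions, with medians of -0.53 and -0.52, compared with medians of -0.11 and -0.07 over all regions of those fits, of which 57.4% and 55% were below 0. At the WT table regions the K4-K27 median over the genes was -0.68, and it was -1.03 without DKO clone 43 and -0.23 without DKO clone 53. Other developmental gene lists also had medians below 0 for K4-K27 and K27-K4 in the clone table fits. These were -0.46 and -0.43 (neural tube patterning), -0.45 and -0.52 (heart) and -0.57 and -0.55 (endoderm and pancreas). The 4 other Nkx genes had -0.29 and -0.38, and stem cell genes 0.38 and -0.32. Medians below 0 were therefore not particular to the 9 genes. For K4-K27, DKO was below both WT clones without overlap at 6 of 9 genes (Nkx1-2, Nkx2-1, Nkx2-5, Nkx2-6, Nkx3-2 and Nkx6-1), and 22.3% of all regions showed this. For K27-K4 it was 5 of 9 (Nkx2-5, Nkx2-6, Nkx3-2, Nkx6-1 and Nkx6-2), and 27.1% of all regions did. For total H3K4me3 it was 3 of 9 (Nkx2-5, Nkx2-6 and Nkx3-2) against 23.5%, and for total H3K27me3 it was 2 of 9 (Nkx2-5 and Nkx2-6) against 17.8%. At the WT table regions, Nkx2-2 was closest to WT for K4-K27, with 2.46 and 2.2 in WT clones against 2.42 and 1.94 in DKO clones, a difference of -0.15 (-1.30 to 1.00). Nkx2-3 followed at -0.37 (-1.57 to 0.84). Nkx6-1 had 3.27 and 3.26 against 2.78 and 2.30, a difference of -0.72 (-1.92 to 0.47), and Nkx3-2 had 3.77 and 3.46 against 3.33 and 2.54, a difference of -0.68 (-1.92 to 0.56). DKO clone 53 was below clone 43 at each of these genes. With 1 clone left out, the K4-K27 difference ranged from -0.70 to -0.04 at Nkx2-3 and from -1.07 to -0.28 at Nkx3-2. For K27-K4, Nkx3-2 had 3.74 and 2.98 in WT clones against 2.63 and 2.39 in DKO clones, a difference of -0.85 (-1.91 to 0.20). Nkx6-2, a gene of the central nervous system, had 4.00 and 3.17 against 2.85 and 2.65, a difference of -0.83 (-1.94 to 0.27). With 1 clone left out, the K27-K4 difference ranged from -1.24 to -0.47 at Nkx3-2 and from -1.25 to -0.42 at Nkx6-2. Nkx1-2 and Nkx2-2 were closest to WT for K27-K4, both at -0.42, with DKO values inside or next to the range of the WT clones. At the shared regions, total H3K27me3 outside Nkx2-5 and Nkx2-6 differed by -0.26 (Nkx3-2) to 0.05 (Nkx6-1), with intervals that reached 0.81 to either side in the median over the 9 genes. At clone table regions the median over the genes with a region ranged from -0.48 to 0.33 with 1 clone left out, so its direction turned. At its WT table region Nkx3-2 was at -0.32 (-1.12 to 0.48), with DKO below both WT clones.

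Without WT clone 58, which had the lower K27-K4 value at each of the 9 genes, 4 of the 8 genes with a region were called lower for K27-K4 (Nkx2-1, Nkx2-5, Nkx3-2 and Nkx6-2), where 9.29% of all regions were. The K27-K4 region of Nkx3-2 was listed in the WT table alone, so its call supports nothing, while the other 3 genes had regions in both tables. With 1 clone left out, the median K27-K4 difference over the genes at their clone table regions ranged from -0.96 to -0.23. Without WT clone 57 none was called for K27-K4, and the median over the genes was -0.23 in place of -0.59 at their clone table regions.

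The comparison of K27-K4 with K4-K27 asks whether the order of antibodies changes the level at these genes. In E14 replicate 1, K27-K4 minus K4-K27 was between -0.47 (Nkx2-6) and 0.21 (Nkx6-2), and was above 0 at 2 of 9. In E14 replicate 2 it was between 0.91 and 1.13 and above 0 at all 9. The 2 replicates did not overlap at any gene. In WT clone 57 it was between 0.34 and 0.89, and in clone 58 between -0.06 (Nkx6-1) and 0.30. No gene of the 9 was called in either line by limma, with adjusted p-values of 0.829 to 0.872 in E14 and 0.558 to 0.816 in WT clones without pairing. In E14 cells 0% of the 21857 shared regions were called (55 had an unadjusted p under 0.05), and in WT clones 31% were called in either direction. Libraries with the same number come from the same cells, and with this replicate block the count in E14 was 1523 regions called, with none of the 9 genes among them (adjusted p of 0.512 to 0.720). In WT clones the adjusted p with the replicate block was 0.0449 to 0.746, and was under 0.05 at Nkx2-3 (0.55 higher in K27-K4) and Nkx2-5 (0.49 higher, adjusted p = 0.0491), where both differences were below the log2 difference of 1 that a call needs.

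The order comparison in WT clones changed with scaling. The median over all shared regions was -0.23, whereas the 9 genes lay between 0.24 (Nkx2-6) and 0.55 (Nkx2-3), above that median. When each library was centred on its own median, the differences were 1.23 to 1.53, and all 9 genes were called higher in K27-K4 (adjusted p of 0.000156 to 0.0136), with 33.8% of all regions called higher. Over all regions the calls were 289 higher and 6486 lower as deposited, and 7397 higher and 4603 lower after centring. In E14 the median over all regions was 0.70, the 9 genes lay between 0.26 and 0.60, and centring put all 9 below 0 (-0.43 to -0.08) with none called.

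**Figure D5:**
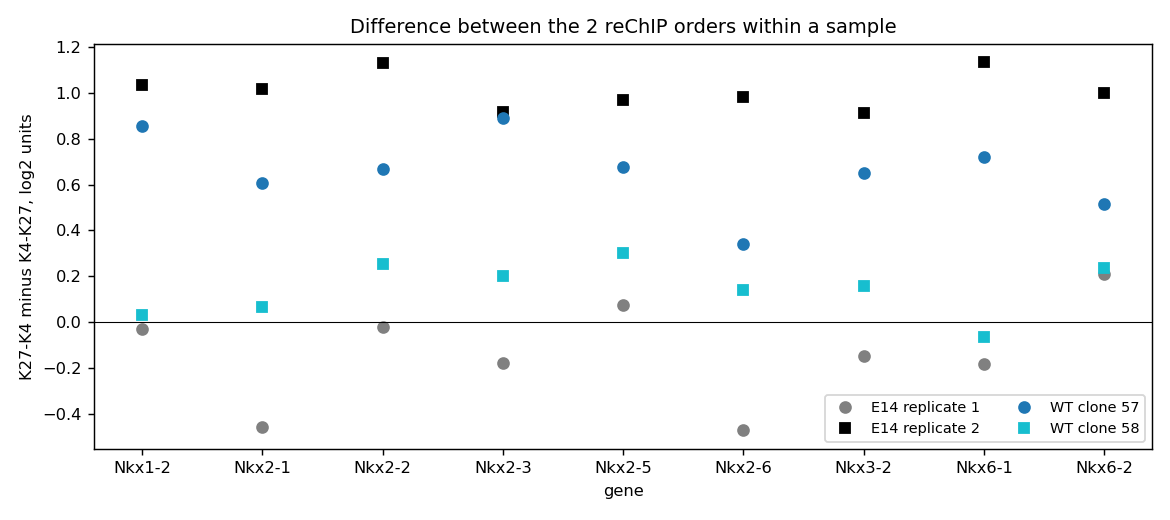
K27-K4 minus K4-K27 (log2 units) within each sample at the 9 Nkx genes. E14 replicate 2 (black squares) sits between 0.91 and 1.13 at every gene and E14 replicate 1 (grey circles) between -0.47 and 0.21, with the WT clones between -0.06 and 0.89.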

How the data were processed

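ChIP and reChIP libraries of 26 samples were used, 9 from E14 cells and 17 from WT and DKO clones. Per the labels and the methods, the authors trimmed reads (Trim Galore 0.6.6), aligned them to mm10 (BWA 0.7.13), marked duplicates (Picard 2.6.0) and quantified regions in SeqMonk. The deposited values are log2 RPM per kb of region, from alignments above a mapping quality of 20, without removing duplicates and without taking off the IgG–IgG signal. The 12 tables hold 240 columns of these samples and 32 columns that belong to no sample here and were not used. Values were whole reads within 0.1 read, with 0 reads entered as 0.9, and depth was 6741244 to 47903462 reads per library. Counting error alone is covered by reads printed beside values.

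RefSeq start sites (GRCm38.p6, curated and model transcripts) were used with 1500 bases either side. Groups were compared with limma 3.58.1 (R 4.3.3; lmFit, eBayes with trend and robust, two-sided, Benjamini-Hochberg over all regions of a fit), on the log2 values as deposited. WT and DKO tables of 1 ChIP were pooled, and regions with identical coordinates were taken once, so overlapping regions of both tables remain. Fits of K27-K4 and both totals over the regions of the E14 K4-K27 table, where every gene has a value, were added after the data were seen, as were fits without overlapping regions and the use of curated start sites. The genes named were the 9 genes, 4 other Nkx genes, stem cell genes and, in each list of tissue genes, at most the 4 called genes with the largest difference. One further gene is not reported here. Genes and lists were chosen with earlier results of these data known.

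K4-K27 and K27-K4 of one number come from the same cells. The main fit of the order comparison did not pair them, and the replicate block was run as an alternative. The deviations of both orders correlated at 0.193 in E14 cells and at 0.00763 in WT clones, over 21857 regions. On simulated data for the DKO comparison of K4-K27 in 53855 regions, a shift of 3 log2 units was recovered in 40% of 100 regions and a shift of 1.5 in 3%, and for K27-K4 in 59260 regions these were 50% and 4%. Python 3.11.15, numpy 2.4.6, pandas 2.3.3 and matplotlib 3.10.9 were used. Alternatives covered scaling, the variance model, low values, the region set, the region rule, the pairing and each sample left out. Replicates of the clones are separate clones, and E14 replicates share a cell line, so p-values refer to the spread between such samples. The eBayes step draws the variance of each region towards a trend over all regions. A p-value or interval therefore does not measure the spread at a single gene alone.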

Additional observations from a re-analysis of the deposited data

How the results depend on the processing

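Counts of regions called in the DKO comparisons moved with most settings. For total H3K4me3 they were 1745 as reported, 3899 after median centring, 336 without the lowest quartile, 457 at the regions of the E14 table, 1047 at those of the E14 K4-K27 table, and 74 to 6018 with 1 clone left out. For total H3K27me3 they were 1468 as reported, and 0 after median centring (7689 regions had an unadjusted p under 0.05), 314, 210 and 636 under the same settings, 179 without overlapping regions and 133 to 650 with 1 clone left out. For K4-K27 the 643 regions became 7715 without trend and robust estimation, 973 at the E14 regions and 243 to 558 with 1 clone left out. For K27-K4 the 1341 regions became 2230 at the E14 table, 2062 at the E14 K4-K27 table, 671 without overlapping regions and 482 to 8630 with 1 clone left out. The cause was not tested.

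Of the 9 Nkx genes, 1 was called for total H3K4me3 after median centring (Nkx2-5) and 0 to 1 with 1 clone left out. For K4-K27, 1 was called after median centring (Nkx2-5) and 1 without trend and robust estimation (Nkx2-6, at a region of 300 bp of the WT table alone that held 10, 9, 1 and 3 reads), where 14.3% of all regions were called and 7.87% were called lower, so this count was near the background. For K27-K4, 1 was called at the E14 and at the E14 K4-K27 regions (Nkx2-6) and 0 to 4 with 1 clone left out. None was called for total H3K27me3 at the clone table regions under the settings run, but at its E14 region Nkx2-5 was called without WT clone 58 (-1.05). Of 289 alternative values of 27 single-gene results, 276 kept direction and call, 10 gained and 1 lost a call, and 2 turned direction with a clone left out. These were K4-K27 at Nkx2-2 (range -0.39 to 0.087) and K27-K4 at Nkx1-2 (-0.87 to 0.021).

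Between orders, E14 had 0 regions called, and 1523 with the replicate block. WT clones had 6775, 12000 after median centring and 4470 to 8390 with 1 library left out, and 9 Nkx genes called after centring only. In WT clones the replicate block gave 7383 regions, and the block changed no call of the 9 genes in either line. With 1 library left out, the median over the 9 genes ranged from -0.17 to 1.10 in E14 and from -0.00041 to 0.77 in WT clones. Of 81 choices of a region, the region nearest the start site gave the same one in 79, 500 bases either side in 77 with 3 regions lost, and curated start sites in 76 with 2 lost, both of Nkx2-2. Leaving out 1 sample leaves a lone sample that is assumed to vary like the other group.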

Other observations

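Genes of the tissues that Nkx factors help to form, from lists chosen with earlier results known, were compared in the same fits, in which the share of all regions called lower was 1.19% (K4-K27), 2.24% (K27-K4) and 2.47% (total H3K4me3). All 12 neural tube patterning genes and all 10 heart genes had a shared E14 reChIP region, with median E14 K4-K27 levels of 2.23 and 2.19, close to the 9 Nkx genes. In the DKO, 1 of the 12 neural tube patterning genes was called lower for K4-K27 and for K27-K4. This was Dbx2, a factor of interneuron progenitors, at -3.76 and -2.96. Of the 10 heart genes, none was called for K4-K27 and 3 were called lower for K27-K4, namely Myocd (-2.55), Hand1 (-1.93, at a region of the DKO table) and Tbx5 (-1.58). Of the endoderm and pancreas genes, 1 of 8 with a region was called lower for K4-K27 and 1 of 9 for K27-K4, which was Pdx1, the pancreas master regulator, in both (-2.44 and -1.45). Dbx2, Pdx1 and, for total H3K4me3, Myocd had a region in the WT table alone, so they entered through the group where they were high and their calls support nothing. Tbx5, Hand1 and Myocd had K27-K4 regions in both tables. Of these, Tbx5 was called at its WT table region only, Hand1 at its DKO table region only and Myocd at both. A gene was counted if either of its regions was called, whereas the shares of all regions are per region. For total H3K4me3, Dbx2 (-2.84) and Myocd (-2.87) were called lower, and for total H3K27me3 no gene of these lists was called by limma. None of the genes of these 3 lists was called higher in any of the 4 ChIPs.

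Of 4 other Nkx genes (Nkx1-1, Nkx2-4, Nkx2-9 and Nkx6-3), all had a shared E14 reChIP region, and none was called by limma in the DKO fits as reported or had an unadjusted p under 0.05 there. Nkx2-4 had the highest K27-K4 level of these 13 Nkx genes in E14, at 2.81 and 4.34. It had a narrower region than each of the 9 genes, at 4.35 kb.

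The genes whose promoter profile was most like the median of the 9 over 16 E14 and WT libraries were Irx1 (Pearson's r = 0.997), Onecut2 (0.997), Tlx3 (0.997), Gata6 (0.997) and Gm24538 (0.997). This is a description over libraries that share cells and scaling, and 3094 of 17929 genes had an r above 0.9.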
